A study of Mus musculus with 2 samples.

Results

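Resting EpA cells are ependymal cells of the uninjured mouse spinal cord. Ependymal cells line the central canal and carry motile cilia that stir the cerebrospinal fluid. Each motile cilium is built on a basal body, filled by intraflagellar transport and moved by dynein arms on a skeleton of microtubules. FOXJ1 and the RFX factors are the transcription factors known to switch on the genes of this organelle. The cells described here are all uninjured cells in the authors' own table of EpA cells. They are all but 156 of the 711 kept cells of the uninjured library, which has 876 deposited barcodes. The whole series has 2442 barcodes, of which 1939 were kept. Those 156 kept uninjured cells outside the EpA table, called outside cells here, serve as the comparison.

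The uninjured library came from adult C57BL/6J mice of 12 weeks or more. They carried 1 copy of Troy-CreERT2 and a Rosa26-tdTomato reporter. Troy is Tnfrsf19, so that the red label marks cells in which this gene's promoter drove the recombinase, and their progeny. The injured library, used only at the end, came from the same genotype and strain 3 days after a dorsal funiculus incision. Cord segments of 5 mm were dissociated with papain, red cells were sorted, and droplet 3′ libraries were made. There was 1 library per condition, and the number of animals in each is not given in the sources used here. Nothing below therefore has a replicate check, and no test was made. How the authors set EpA cells apart is not given in the sources used here either. Any gene may have been used for it, so differences from the outside cells describe the set and are not evidence for it. Levels are summed counts of unique molecular identifiers (UMIs) per 1000000 UMIs of the set (CPM). Ranges in brackets after a level, a ratio or a share are 95% intervals (Poisson, or exact binomial) that cover counting error alone, and variation between animals is not in them. Cells of 1 library are not replicates.

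The sequences below show the half-site of the X-box. It is the shortest of the few motifs looked for, and the most frequent both in cilium promoters and in all promoters. RefSeq promoter windows (GRCm38.p6; 250 bases before to 50 after the start of the transcript) were found for 131 of the 164 genes in 5 cilium lists. The X-box is the site that RFX factors bind. Its half-site, GTTGCC on either strand, is in capitals with 20 bases on each side, read along the strand that holds it. A further copy within the flanks stays in lower case, as at the start of the Tekt1 stretch, where it reads on the other strand, and at the end of that of Cfap161. Ccdc153 is shown as a marker of the set and belongs to none of these lists. The others are list genes with at least 50 CPM in EpA cells whose windows hold it, picked to cover several parts of the cilium.

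Ccdc153: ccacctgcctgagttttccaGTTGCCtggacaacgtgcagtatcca
Dynlrb2: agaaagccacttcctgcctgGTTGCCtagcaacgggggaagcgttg
Enkur: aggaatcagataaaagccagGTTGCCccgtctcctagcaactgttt
Iqca: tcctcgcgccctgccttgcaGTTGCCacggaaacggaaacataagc
Tekt1: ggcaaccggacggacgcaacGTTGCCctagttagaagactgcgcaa
Cfap161: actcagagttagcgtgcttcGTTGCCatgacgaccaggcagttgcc
Kif9: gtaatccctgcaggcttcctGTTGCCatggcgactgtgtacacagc
Dnaic2: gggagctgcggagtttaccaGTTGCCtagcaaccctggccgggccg

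The Ccdc153 site lies at chr9:44240505-44240550 on the plus strand, 149 bases before the start. Ccdc153 is one of the EpA markers, and its gene spans chr9:44240677-44247306. The Dynlrb2 site is at chr8:116504944-116504989 (plus strand), the Enkur site at chr2:21205374-21205419 (minus strand) and the Iqca site at chr1:90153511-90153556 (minus strand). Those of Tekt1 and Cfap161 are at chr11:72361892-72361937 and chr7:83794853-83794898, both on the plus strand. The Kif9 site is at chr9:110476947-110476992 (plus strand) and the Dnaic2 site at chr11:114727373-114727418 (minus strand).

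All motifs were searched on both strands. The half-site was present in 65 of 147 windows of the cilium lists, 44.2% (36.0 to 52.6%). It was present in 15% (13.8 to 16.3%) of 3083 windows of other genes with at least 50 CPM in EpA cells, and in 12.5% of all 32851 windows of the table. The 147 windows are of 131 genes, and the intervals treat windows of the same gene as separate. The X-box as a whole, GTTGCC, any 2 bases and then GGNAAC, contains the half-site. It was present in 4 cilium windows, 2.72% (0.746 to 6.82%), against 0.298% of all windows. The forkhead motif GTAAACA, a form bound by FOXJ1 and other forkhead factors, was in 3.40% (1.11 to 7.76%) of cilium windows and 3.65% of all windows. Of the 5 markers, Ccdc153 had the half-site, Tmem212 and Mia had none of these letters in their windows, and no window was at hand for Foxj1 and Rarres2. A match to letters is a description and not a bound site.

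**Figure D1:**
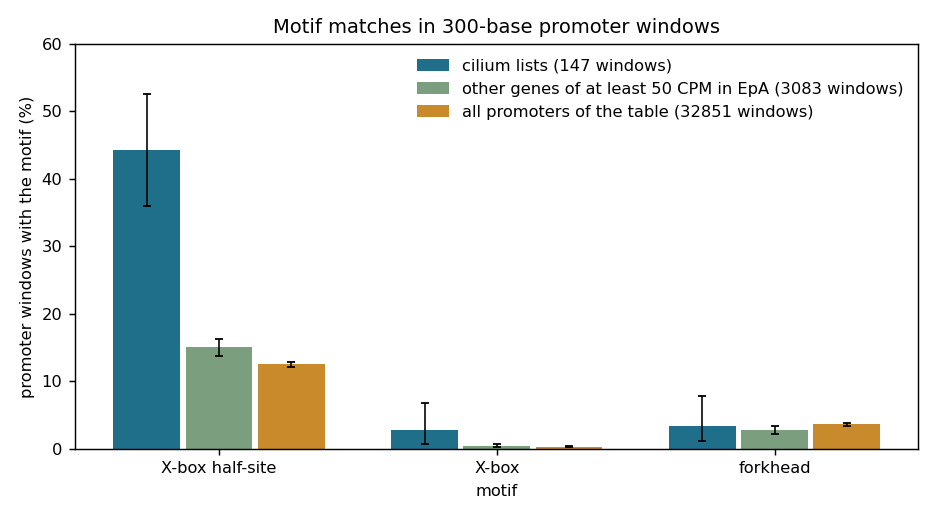
Share of promoter windows (%) that hold the X-box half-site, the X-box or the forkhead motif, for the cilium lists, other genes of at least 50 CPM in EpA cells and all promoters of the table; lines are 95% binomial intervals. The half-site stands at 44.2% in the cilium lists, against 15% and 12.5% in the other sets, while the forkhead motif stands at 3.40% in the cilium lists and 3.65% in all promoters.

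EpA cells held 7689179 UMIs in sum and outside cells 1281715. The median EpA cell had 11387 UMIs (683 to 47859) and 3574 genes, against 6880 UMIs (748 to 40485) and 2486 genes in the median outside cell. At a common depth of 2000 UMIs a cell, the medians were 1093 genes in 547 EpA cells and 1028 genes in 121 outside cells, with 8 and 35 shallower cells left out. The median share of mitochondrially encoded transcripts was 11.2% in EpA and 4.74% in outside cells. In all, 14972 of the 15624 genes in the table had a UMI in EpA cells, 3198 genes reached 50 CPM and 223 reached 500 CPM, and the 287 highest genes held 50% of the UMIs. The 2 libraries share 18 barcode sequences, 2 of them between the EpA sets, and these were kept apart by library.

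The marker genes lie at chr11:116330704-116335499 (Foxj1), chr3:27866065-27896391 (Tmem212), chr6:48569696-48572845 (Rarres2) and chr7:27179741-27181149 (Mia), beside Ccdc153 given above. Most cells of the set carried the ependymal markers. This is no check of the label, since any gene may have been used to set the cells apart. At least 3 of the 5 ependymal markers, with 2 UMIs each, were found in 546 EpA cells (98.4%), all but 9, and in 3 of 156 outside cells. Of the 9 EpA cells short of them, 8 were shallow, with 683 to 1706 UMIs. The other one was deep, with 14874 UMIs and 1889 genes but 0 UMIs of every marker, and is described with the variable genes. The outside cells were a mixture. By the same measure 47 of them held markers of endothelial cells, 36 of microglia, 29 of astrocytes and 18 of fibroblasts, and 23 held those of no class. Each of the oligodendrocyte, oligodendrocyte precursor, neuron, erythroid and granulocyte or lymphocyte lists was met by 1 outside cell. A level outside EpA can thus rest on few cells.

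Foxj1, the master transcription factor of motile cilia, stood at 421 CPM (407 to 436) in EpA cells and 11.7 CPM (6.55 to 19.3) in outside cells, a ratio of 36.0 (21.8 to 64.4). Ccdc153, a coiled-coil protein of ciliated cells, stood at 1702 CPM in EpA and 47.6 CPM in outside cells. Tmem212, a membrane protein gene, stood at 1526 CPM in EpA and 39.0 CPM in outside cells. All 5 markers lay far above the outside level. Rarres2, the secreted chemoattractant chemerin, stood at 1745 CPM (1716 to 1775) in EpA and 58.5 CPM (46 to 73.3) in outside cells. Mia, a small secreted protein first known from melanoma, stood at 1417 CPM in EpA and 47.6 CPM in outside cells. Much of the outside level came from the 3 outside cells with ependymal markers, least so for Rarres2. Without them Foxj1 stood at 2.47 CPM, Ccdc153 at 7.42 CPM, Tmem212 at 5.77 CPM, Rarres2 at 34.6 CPM and Mia at 4.12 CPM in the outside sum, and the ratios of EpA over outside were 170, 230, 265, 50.4 and 344 in that order. Against all other uninjured barcodes, which include 165 that the authors did not keep, 48 of them with ependymal markers, the log2 ratios of the 5 markers were smaller, from 1.77 for Ccdc153 to 2.32 for Mia, in place of 5.15 and 4.88.

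At 2000 UMIs a cell, Foxj1 was seen in 58.3% of EpA cells and in 0 of 121 outside cells. Ccdc153 was seen in 94.3% of EpA and 3.31% of outside cells, and Rarres2 in 85.6% of EpA and 6.61% of outside cells. Cells that should lack these genes rarely held them. Of 30 outside cells with microglial markers, 0 held Foxj1, Ccdc153, Rarres2 or Mia, which allows a share of up to 10% by a limit of 3 cells (11.6% by the exact binomial interval), and 2 held Tmem212. Their median depth was 7952 UMIs before thinning, against 11415 UMIs for the EpA cells. Of 44 cells with endothelial markers, 2 held Ccdc153 and 1 held Mia.

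The reporter was no mark of the EpA set. Transcripts of tdTomato stood at 645 CPM in EpA and 733 CPM in outside cells. At 2000 UMIs it was seen in 69.7% of EpA cells, in 86.4% of the outside cells with endothelial markers and in 10% of those with microglial markers. The driver gene Tnfrsf19 stood at 16.7 CPM (13.9 to 19.8) in EpA and 57.7 CPM (45.3 to 72.5) in outside cells, 3.47-fold lower in EpA (2.57 to 4.65).

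**Figure D2:**
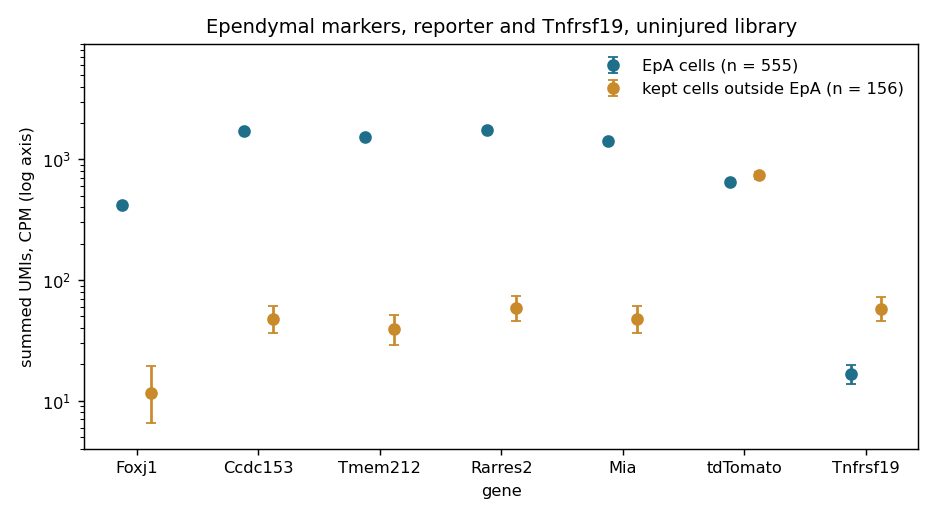
Summed level (CPM, log axis) of the 5 ependymal markers, the reporter tdTomato and Tnfrsf19 in EpA cells (left of each pair) and 156 kept cells outside EpA (right); lines are 95% Poisson intervals. The markers stand between 421 and 1745 CPM in EpA cells and between 11.7 and 58.5 CPM outside, tdTomato is close in both, and Tnfrsf19 is lower in EpA cells.

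Mitochondrially encoded genes, left out of this ranking, reached up to 21791 CPM in EpA and 12266 CPM in outside cells (mt-Atp6). Of the nuclear genes ranked, the most abundant in resting EpA cells was the nuclear RNA Malat1, at 68061 CPM in EpA and 49379 CPM in outside cells, followed by genes of metabolic and metal-binding proteins. Dbi, which encodes the acyl-CoA binding protein, reached 12708 CPM in EpA and 735 CPM in outside cells, a ratio of 17.3 (16.2 to 18.5). Mt3, the brain metallothionein, reached 10520 CPM in EpA and 847 CPM in outside cells. Mt1, a metallothionein found in most tissues, reached 7255 CPM in EpA and 1147 CPM in outside cells. Nnat, an imprinted gene for the membrane proteolipid neuronatin, reached 5590 CPM in EpA and 176 CPM in outside cells, a ratio of 31.8 (27.9 to 36.5). Against all other uninjured barcodes the log2 ratios were 1.79 for Dbi, 1.53 for Mt3 and 2.32 for Nnat. These were not traces in a few cells. At 2000 UMIs Dbi was seen in 99.8% of EpA and 42.1% of outside cells, and Nnat in 99.5% of EpA and 7.44% of outside cells. Among outside cells with endothelial markers Dbi was seen in 34.1%.

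Others of the 15 highest genes ranged from level with the outside cells to 10.5-fold higher. Hsp90aa1, the inducible form of the chaperone HSP90, stood at 5545 CPM in EpA and 527 CPM in outside cells. Its constitutive partner Hsp90ab1 stood at 4251 CPM in EpA and 1526 CPM in outside cells. Clu, the secreted chaperone clusterin, stood at 3583 CPM in EpA and 535 CPM in outside cells. Fth1, the heavy chain of ferritin, was within 2-fold, at 4761 CPM in EpA and 4929 CPM in outside cells. So were Itm2b, Ptma, Ifitm3 and Ubb, with EpA levels from 2594 to 3661 CPM.

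With no replicates, a gene counts as higher or lower where it has 50 CPM or more in either set and a ratio of at least 2-fold. Of 4349 genes past this floor, 1070 were higher in EpA cells (24.6%) and 1061 lower (24.4%). The median log2 ratio was 0.05 over these genes and -0.15 over the whole table. Deep cells weigh more in such sums, and EpA cells hold more UMIs each. With unscaled UMIs per cell, the counts were 1872 higher and 762 lower genes, so that higher genes made up 71.1% of calls in place of 50.2%. A gene that passes the floor through 1 set alone and is almost absent from the other is bound to be called. Calls were not replicated, and their counts are read only against these background shares.

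Genes of the motile cilium were higher in EpA cells with few exceptions among those past the floor. Of 164 genes in 5 cilium lists, 152 were in the table and 113 passed the floor, and 110 of these were higher in EpA cells, where 24.6% of all genes past the floor were. The median log2 ratio of the 152 was 4.24, or 4.01 with genes at 0 set to a floor of 3 counts. Transcripts of the 5 lists made up 2.71% of all UMIs in EpA cells and 0.237% in outside cells. Without the 3 outside cells with ependymal markers, the median log2 ratio was 4.92. Against all other uninjured barcodes it was 1.72, with 108 genes higher and none lower of 112 past the floor.

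Among the regulators, Rfx3 stood at 95.2 CPM in EpA and 21.9 CPM in outside cells. Rfx4 stood at 95.6 CPM in EpA and 32.8 CPM in outside cells. Myb, which acts early in the making of multiciliated cells, stood at 67.6 CPM in EpA and 15.6 CPM in outside cells. With Foxj1, all 4 regulators past the floor were higher. Rfx2 was under the floor, at 44.1 CPM in EpA and 1.56 CPM (2 UMIs) in outside cells, a ratio of 28.2 (7.76 to 234).

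All 25 genes past the floor on the list for dynein arms, the motors of the cilium, and their assembly were higher in EpA cells, with a median log2 ratio of 4.51 over the 35 in the table. Dynlrb2, a light chain shared by several dyneins, was the highest at 878 CPM in EpA and 28.9 CPM in outside cells. Its promoter site is the second of those printed above. Dnah12 and Dnah6, heavy chains of inner arms, stood at 342 and 284 CPM in EpA and at 9.36 and 8.58 CPM in outside cells. Dnah5, a heavy chain of the outer arms whose loss in humans causes primary ciliary dyskinesia, stood at 198 CPM in EpA and 6.24 CPM in outside cells. The motor genes were thus present at moderate levels. At 2000 UMIs Dnah5 was seen in 30.3% of EpA cells and Dynlrb2 in 81.5%.

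The list for radial spokes, the central pair and the nexin link, which pace and bend the cilium, had 24 of 24 members past the floor higher and a median log2 ratio of 4.97 over 30. Rsph1, a protein of the radial spoke head, led with 1175 CPM in EpA and 33.6 CPM in outside cells. Ccdc39, a molecular ruler of the axoneme, stood at 375 CPM in EpA and 10.1 CPM in outside cells. Cfap54, of the central pair, stood at 351 CPM in EpA and 6.24 CPM in outside cells. Spef2, also of the central pair, stood at 380 CPM in EpA and 14 CPM in outside cells. Iqca, of the nexin link, stood at 370 CPM in EpA and 12.5 CPM in outside cells.

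Of 30 members past the floor on the list of axonemal microtubule and Cfap proteins, 28 were higher, 1 was lower and 1 was neither, with a median log2 ratio of 4.59 over 35. Tuba1a, an alpha-tubulin, stood at 2685 CPM in EpA and 404 CPM in outside cells, though its reads may be shared with near-identical tubulin genes. Tubb4b, a beta-tubulin of cilia, stood at 1190 CPM in EpA and 268 CPM in outside cells. Enkur, Mns1 and Cfap126 belong to the axonemal microtubules. Enkur stood at 709 CPM in EpA and 24.2 CPM in outside cells, Mns1 at 492 CPM in EpA and 21.9 CPM in outside cells, and Cfap126 at 592 CPM in EpA and 9.36 CPM in outside cells. The lower member was the alpha-tubulin Tuba4a, at 2.34 CPM in EpA and 63.2 CPM in outside cells, which was not called with every cell weighted alike. The member that was neither was Cfap97, at 58.3 CPM in EpA and 39.8 CPM in outside cells. Both were named after their values were seen.

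For intraflagellar transport and the basal body, 29 of 30 members past the floor were higher, but by less, with a median log2 ratio of 2.98 over 43. Cetn2, the centrin of basal bodies and centrosomes, stood at 698 CPM in EpA and 75.7 CPM in outside cells. Ift74, of the transport complex B, stood at 288 CPM in EpA and 34.3 CPM in outside cells. Ift20, which also serves the Golgi, stood at 299 CPM in EpA and 119 CPM in outside cells. Cetn4, a centrin of ciliated cells, stood at 283 CPM in EpA and 7.80 CPM in outside cells. These genes also serve the primary cilium that many other cell types carry.

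**Figure D3:**
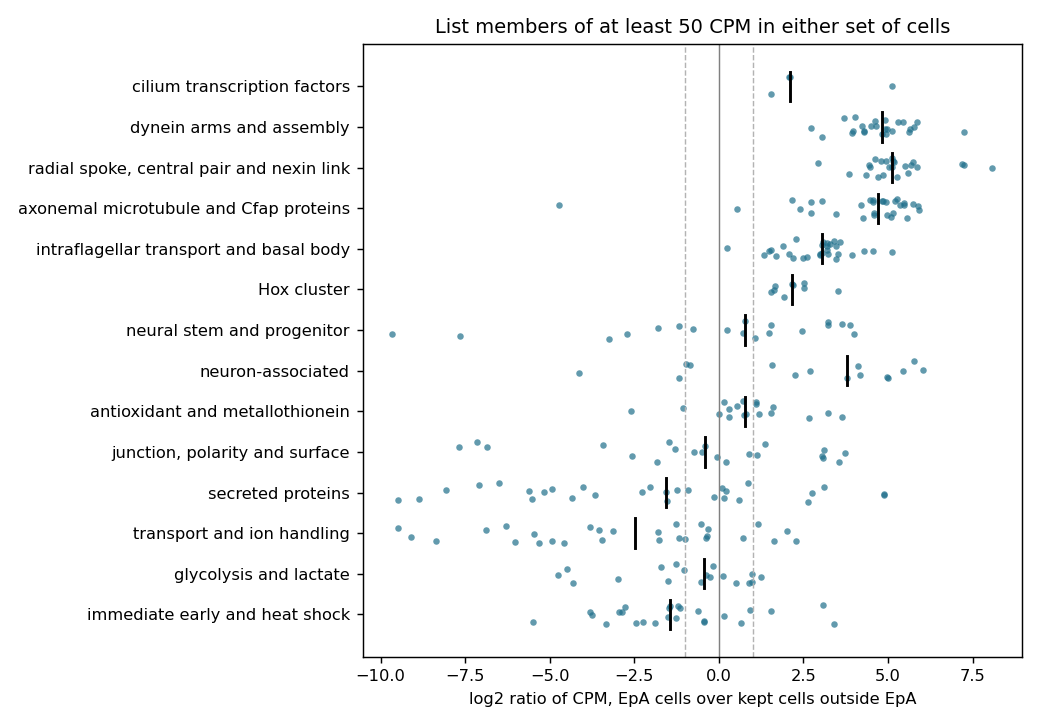
Log2 ratio of CPM, EpA cells over kept outside cells, for members of 14 lists with at least 50 CPM in either set; each point is a gene, black bars are medians of the points, and dashed lines mark 2-fold. The 5 cilium lists lie almost wholly to the right, while the lists for secreted proteins, transport and early response lie on both sides with medians below 0.

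Genes with 0 UMIs in outside cells were ranked by a floor of 3 counts over all outside cells, such as Ccdc30 (177 CPM in EpA, at least 75.5-fold higher) and Spag8 (106 CPM in EpA, at least 45.3-fold higher), both named after their values were seen. The 12 largest ratios so ranked were mostly of genes absent from the lists, with 1 to 4 UMIs in all outside cells, so that their ratios are loose. Spag17, a central pair protein, stood at 179 CPM in EpA (1379 UMIs) and had 1 UMI in outside cells, a ratio of 230 (41.2 to 9086). Cfap46, also of the central pair, stood at 169 CPM in EpA with 1 UMI in outside cells, a ratio of 217 (38.9 to 8585). Ccdc113, a coiled-coil protein of cilia, stood at 325 CPM in EpA and 3.12 CPM (4 UMIs) in outside cells, a ratio of 104 (40.6 to 382). Htr5b, a serotonin receptor gene, stood at 76.3 CPM in EpA with 1 UMI in outside cells, a ratio of 97.9 (17.5 to 3871). The others were Stmnd1, Fam47e, Lrrc74b, Lrrc36, Ppp1r32, Lrrc43, Ccdc33 and Acot5, with EpA levels from 89.9 to 229 CPM. None of the 12 was seen in more than 48.3% of EpA cells at 2000 UMIs, and of the 12 only Acot5 was seen in an outside cell at that depth (0.826%).

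The 8 smallest ratios were of genes that define other cells. C1qc and Tyrobp, of microglia, had 1 UMI each in all EpA cells and 932 and 637 CPM in outside cells. C1qc was 7169-fold lower in EpA (1284 to 283393). Cldn5 and Flt1, of endothelial cells, had 5 UMIs and 1 UMI in EpA cells and 2217 and 574 CPM in outside cells. The haemoglobin gene Hbb-bs had 9 UMIs in EpA cells and 5914 CPM in outside cells, although it was seen in 1.65% of outside cells at 2000 UMIs, and Hbb-bt had 2 UMIs in EpA cells and 1018 CPM in outside cells. The granulocyte genes Camp and Mpo had 4 UMIs and 1 UMI in EpA cells and 1746 and 460 CPM in outside cells, again from very few outside cells (3.31% and 1.65%).

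Marker lists of other classes were low in EpA cells as a whole. The 12 microglial markers summed to 49.7 CPM in EpA and 9088 CPM in outside cells, and 11 of the 12 were under 5 CPM in EpA cells. The 10 endothelial markers summed to 19.0 CPM in EpA and 5245 CPM in outside cells, of which Kdr gave 13.9 CPM in EpA. The 8 fibroblast markers summed to 30.3 CPM in EpA and 1603 CPM in outside cells, with 5 of the 8 at 0 and Col1a2 at 28.9 CPM in EpA. Of 9 astrocyte markers, none was at 0 in EpA cells, and they summed to 270 CPM in EpA and 2940 CPM in outside cells. Aqp4, the water channel of astrocyte end-feet, stood at 132 CPM in EpA and 452 CPM in outside cells, and Gfap at 8.58 CPM in EpA and 20.3 CPM in outside cells. The 14 EpA cells with at least 3 markers of another class all met the astrocyte list. The neuron list summed higher in EpA cells, to 246 CPM in EpA and 79.6 CPM in outside cells, from Stmn2 (152 CPM in EpA and 49.9 CPM in outside cells) and Snhg11 (88.4 CPM in EpA and 7.02 CPM in outside cells), while 6 of its 8 measured genes were under 5 CPM. So did the choroid plexus list, of which the folate receptor Folr1 alone was high, at 272 CPM in EpA and 4.68 CPM in outside cells. Without the 14 EpA cells that met the astrocyte list, 1068 genes were higher and 1067 lower in EpA cells, in place of 1070 and 1061. Any further part of cells of other classes in the results was not tested.

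Secreted proteins went both ways. Of 29 members past the floor, 5 were higher (background 24.6%) and 17 lower in EpA cells (background 24.4%), and the median log2 ratio of the 41 in the table was -1.60. Besides Clu, Rarres2 and Mia, the higher ones were Scg5, a chaperone of the secretory pathway, at 218 CPM in EpA and 25 CPM in outside cells, and 1500015O10Rik, the augurin gene, at 4041 CPM in EpA and 644 CPM in outside cells. The lower ones included carriers and growth factors of astrocytes and other cells. Ptn, the growth factor pleiotrophin, had 2.34 CPM in EpA and 1729 CPM in outside cells. Apoe, the main lipid carrier of the brain, stood at 1043 CPM in EpA and 5008 CPM in outside cells, 4.8-fold lower, yet was seen in 64.5% of EpA and 64.5% of outside cells at 2000 UMIs. Cst3, the protease inhibitor cystatin C, stood at 1021 CPM in EpA and 12798 CPM in outside cells, 12.5-fold lower (12.2 to 12.9). Igfbp2, a binding protein of insulin-like growth factors, stood at 26.8 CPM in EpA and 431 CPM in outside cells. Pltp, the phospholipid transfer protein, was neither, at 1055 CPM in EpA and 953 CPM in outside cells.

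Transporters and ion handling leaned the same way. Of 28 past the floor, 4 were higher (background 24.6%) and 18 lower (background 24.4%), and the median log2 ratio was -1.17 over 40. The glutamate transporters went opposite ways. Slc1a3 stood at 188 CPM in EpA and 84.3 CPM in outside cells, whereas Slc1a2 stood at 19.6 CPM in EpA and 865 CPM in outside cells. Fxyd1, a small regulator of ion transport, stood at 448 CPM in EpA and 110 CPM in outside cells, and the amino acid transporter Slc38a1 at 267 CPM in EpA and 54.6 CPM in outside cells. The glucose transporter Slc2a1 was within 2-fold, at 324 CPM in EpA and 463 CPM in outside cells.

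Of 21 junction, polarity and surface genes past the floor, 7 were higher (background 24.6%) and 8 lower (background 24.4%) in EpA cells. The median log2 ratio was 0.21 over 33, and turned to -0.25 with each cell thinned to 2000 UMIs, so that no direction is given to the list. The higher ones included genes of apical membranes and planar polarity, which orients the beat of cilia. Ezr, the linker of membrane to actin in microvilli, stood at 406 CPM in EpA and 49.1 CPM in outside cells. Crb2, an apical polarity protein, stood at 67.9 CPM in EpA and 4.68 CPM in outside cells. The planar polarity genes Fzd3 and Celsr1 stood at 124 and 56.4 CPM in EpA and at 10.1 and 6.24 CPM in outside cells. Cd24a, a surface glycoprotein used to sort ependymal cells, stood at 384 CPM in EpA and 43.7 CPM in outside cells. Prom1, another protein of apical membranes and progenitors, was lower, at 4.81 CPM in EpA and 52.3 CPM in outside cells. Crb2, Celsr1, Fzd3 and Prom1 were named after their values were seen.

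Several neural progenitor factors were present in resting cells. Of 19 members past the floor, 9 were higher (background 24.6%) and 6 lower (background 24.4%), with a median log2 ratio of 0.70 over 29. Sox2, the transcription factor of neural stem cells, stood at 955 CPM in EpA and 64.8 CPM in outside cells and was seen in 82.6% of EpA and 9.09% of outside cells at 2000 UMIs. Sox9 stood at 512 CPM in EpA and 92.1 CPM in outside cells. Vim, the intermediate filament vimentin, was high but within 2-fold, at 2214 CPM in EpA and 1360 CPM in outside cells. The inhibitors of differentiation went separate ways. Id4 stood at 329 CPM in EpA and 20.3 CPM in outside cells, while Id3 had 5 UMIs in all EpA cells, 0.650 CPM, against 574 CPM in outside cells. Id1 stood at 1.56 CPM in EpA and 325 CPM in outside cells. Id1 and Id3 were named after their values were seen.

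Genes of position along and across the cord were both detected in the set. All 9 Hox genes past the floor were higher in EpA cells (background 24.6%), with a median log2 ratio of 1.61 over the 28 of 52 in the table. Hox genes give neural cells their level along the body. Hoxa7 stood at 230 CPM in EpA and 51.5 CPM in outside cells. Hoxc8 stood at 157 CPM in EpA and 49.9 CPM in outside cells, Hoxb8 at 149 CPM in EpA and 12.5 CPM in outside cells, and Hoxc9 at 73.5 CPM in EpA and 12.5 CPM in outside cells. Genes of paralogue group 10 were low, with Hoxa10 at 11.7 CPM in EpA and 3.90 CPM in outside cells and Hoxc10 at 6.37 CPM in EpA and 4.68 CPM in outside cells.

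Across the cord, a few transcription factors of the embryo's progenitor domains were higher, and the ventral and dorsal lists as wholes were not. The intermediate list had 3 higher and none lower of 3 past the floor. Its median log2 ratio was 3.30 over the 7 in the table, or 0.69 with genes at 0 set to a floor of 3 counts. The ventral list had 1 higher, 1 lower and 1 neither, with a median log2 ratio of -3.38 over 10, and the dorsal list 1 lower of 1, with -4.76 over 8. Nkx6-1, of ventral progenitors, stood at 179.5 CPM in EpA and 8.58 CPM in outside cells. Pax6, of intermediate progenitors, stood at 151 CPM in EpA and 11.7 CPM in outside cells. Irx5 and Irx3 stood at 124 and 63.6 CPM in EpA and at 10.1 and 5.46 CPM in outside cells. Spon1, a secreted protein of the floor plate, was lower, at 1.30 CPM in EpA and 58.5 CPM in outside cells, and the ventral factor Olig2 had 1 UMI in EpA cells and 42.9 CPM in outside cells. The dorsal factor Msx1 stood at 25.2 CPM in EpA and 6.24 CPM in outside cells. Zic2, also dorsal, was lower, with 2 UMIs in EpA cells and 93.6 CPM in outside cells, a 360-fold difference (97.5 to 3006). These factors met in 1 cell about as often as their shares would give. Of 539 EpA cells thinned to 5000 UMIs, Pax6 was seen in 282 and Nkx6-1 in 304, and 164 held both, where the product of the shares gives 159. Irx5 and Nkx6-1 met in 136 cells, where the product gives 138. The 15 pairs looked at were of 6 genes, Msx1, Pax6, Irx3, Irx5, Nkx6-1 and Ptch1, with no Hox gene. Of these pairs, Msx1 and Irx3 lay farthest from the product for their number, in 25 cells where the product gives 17.6.

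Some genes named for neurons were also higher in EpA than in outside cells. Of 15 members past the floor, 11 were higher (background 24.6%) and 2 lower (background 24.4%). The median log2 ratio over the 26 in the table was nonetheless -0.91. Over the 15 alone it was 3.79, of the other sign. Besides Nnat, Pcp4, a small peptide first known from Purkinje cells, stood at 668 CPM in EpA and 21.1 CPM in outside cells. Meg3, an imprinted long non-coding RNA, stood at 649 CPM in EpA and 35.9 CPM in outside cells. Dner, a Notch ligand of neurons, stood at 289 CPM in EpA and 16.4 CPM in outside cells. Calb1, the calcium buffer calbindin, stood at 120 CPM in EpA and 2.34 CPM (3 UMIs) in outside cells. Most markers of mature neurons did not accompany them: 6 of 8 neuron markers were under 5 CPM in EpA cells, as given above. Stmn2 and Snhg11 were the exceptions and stood higher in EpA than in outside cells. With them the marker list summed to 246 CPM in EpA and 79.6 CPM in outside cells.

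Metallothioneins led the redox list. The antioxidant and metallothionein list took 2.44% of EpA and 0.519% of outside UMIs. Of 18 members past the floor, 8 were higher (background 24.6%) and 2 lower (background 24.4%), with a median log2 ratio of 0.63 over 22. Mt2 stood at 1967 CPM in EpA and 208 CPM in outside cells. Prdx6, a peroxiredoxin that reduces lipid peroxides, stood at 935 CPM in EpA and 307 CPM in outside cells. Gpx1, the main cytosolic glutathione peroxidase, was lower, at 57.7 CPM in EpA and 348 CPM in outside cells, while Gpx4 was within 2-fold at 684 CPM in EpA and 411 CPM in outside cells.

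Of 18 genes of glycolysis and lactate handling past the floor, 1 was higher (background 24.6%) and 8 lower (background 24.4%). With TMM factors or DESeq2 size factors, 4 were higher and 7 lower, so the count of higher genes hangs on the scaling. The median log2 ratio was -0.45 over 22 and turned to 0.31 as UMIs per cell. Gapdh, Aldoa and Pkm, enzymes of the main path, were within 2-fold, with Gapdh just under the cut at 1557 CPM in EpA and 783 CPM in outside cells. Hk2, an inducible hexokinase, was 27.3-fold lower (18.4 to 41.7), at 4.03 CPM in EpA and 110 CPM in outside cells. All 13 mitochondrially encoded genes together took 11.1% of EpA and 6.59% of outside UMIs, with 4 called higher (background 24.6%). Of 74 nuclear genes of oxidative phosphorylation past the floor, 4 were higher (background 24.6%) and none lower (background 24.4%), and 70 were within 2-fold. As UMIs per cell, 12 of the 13 mitochondrially encoded and 37 of the 74 nuclear genes were called higher. Against all other uninjured barcodes, none of either list was. Ribosomal protein genes took 7.68% of EpA and 12.7% of outside UMIs, with 16 of 80 called lower (background 24.4%) and none higher (background 24.6%). Their median log2 ratio was -0.76, but -0.00497 as UMIs per cell, and with that scaling 1 was called lower.

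Of signalling and cycle genes in the table, 4 of 18 Notch, 4 of 28 Wnt and 10 of 20 first gap phase genes passed the floor. Of all 15624 genes, 4349 did. No Notch gene was higher and 1 of 4 past the floor was lower, with Notch1 at 54.4 CPM in EpA and 85.8 CPM in outside cells and Hes1, a Notch target, at 87.3 CPM in EpA and 147 CPM in outside cells. Of 4 Wnt genes past the floor, 1 was higher and 2 lower. Lgr4, a receptor for R-spondins, stood at 55.4 CPM in EpA and 14 CPM in outside cells, and the Wnt effector Lef1 had 1 UMI in EpA cells and 149 CPM in outside cells. Of 10 regulators of the first gap phase past the floor, 3 were higher (background 24.6%) and 2 lower (background 24.4%), near the background. The 4 Notch and 4 Wnt genes are too few to set against it. Ccnd2, encoding cyclin D2, stood at 467 CPM in EpA and 39.8 CPM in outside cells, and Ccnd1, cyclin D1, at 7.54 CPM in EpA and 50.7 CPM in outside cells. The proliferation marker Mki67 stood at 4.29 CPM in EpA and 25 CPM in outside cells, and 6 EpA cells held it.

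Cell-to-cell variation was measured in 539 EpA cells thinned to 5000 UMIs each, which left out 16. The Fano factor, variance over mean, is 1 where counting alone sets the spread. Of 6245 genes with a mean of at least 0.1 UMIs, the median was 1.04 and 90.02% were below 1.2. Only 81 genes, 1.3%, reached 2 and are called variable. For most genes the spread between cells was thus close to that of counting alone at this depth. A low mean keeps the Fano factor near 1 even where levels differ between cells. The steadiness of low genes therefore cannot be read from it. Of the 1528 genes with a mean of at least 0.5 UMIs, 59 were variable.

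The 3 largest Fano factors came from 1 cell, the deep EpA cell without ependymal markers. Ly6a, a surface protein of the Ly6 family, had a Fano factor of 129, with 323 UMIs in this cell and 2 UMIs in the other 554 cells. Gsto1, a glutathione transferase, had 302 UMIs in this cell and 59 in the others. Ltf, the iron-binding protein lactoferrin, had 215 UMIs there and 1 elsewhere. Ecm1, an extracellular matrix protein, had 149 UMIs there and 9 elsewhere. The cell also held 135 UMIs of Plet1 and 37 UMIs of the epithelial factor Elf3, 11 UMIs of tdTomato, and none of Sox2 or Mt3. It held 6616 UMIs of Malat1, and 1.26% of its UMIs were mitochondrially encoded, the lowest of the set. It is given no name here. In all, 10 of the 81 variable genes were highest in this cell. Without the 9 cells short of ependymal markers, 73 of the 81 genes stayed variable.

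A second cell carried genes of cell division along with the EpA markers. Hist1h2ap, a histone gene of S phase, had a Fano factor of 40.4, with 203 UMIs in this cell and 76 in the others. The cell held 27 of 33 Mki67 UMIs of the set, 20 UMIs of the DNA topoisomerase Top2a and 33 UMIs of the spindle protein Prc1. It also held 9 UMIs of Ccdc153, 17 of Rarres2 and 3 of Foxj1. It is 1 cell of the set, and doublets were not called.

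When each gene's top cell was left out, 62 of the 81 genes stayed variable. Ly6a, Gsto1, Ecm1 and Hist1h2ap then fell to between 0.955 and 1.04, Ltf had no spread left, and Neat1 and Emp1 fell to 1.01 and 1.48. The variation of Malat1 (34.3 in place of 54.3), Fos (24.98 in place of 26.3), Nnat (9.24 in place of 10.3), Jun (8.32 in place of 9.42) and Dusp1 (6.32 in place of 8.46) did not rest on 1 cell.

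**Figure D4:**
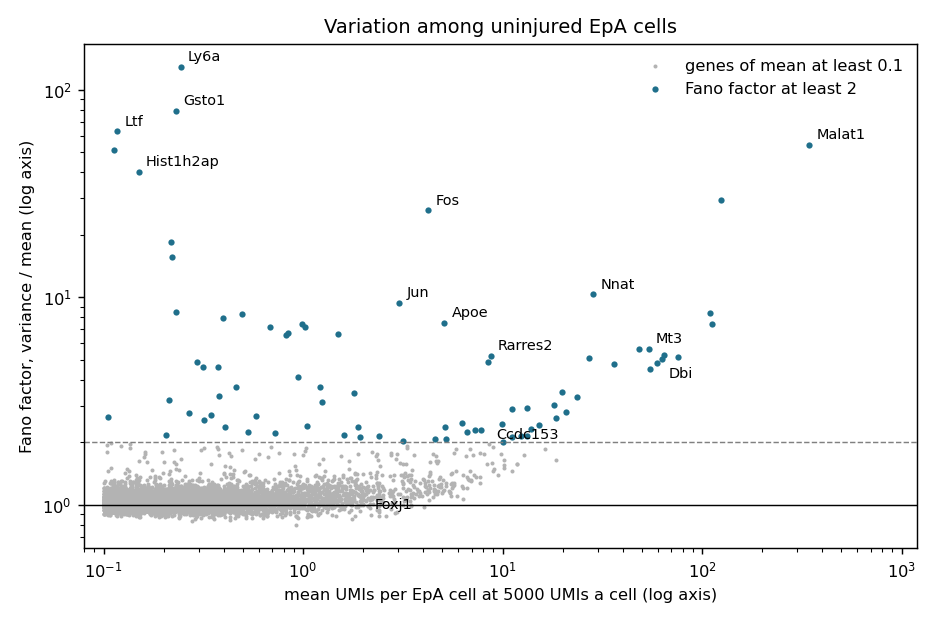
Fano factor against mean UMIs per cell (both log axes) for 6245 genes in 539 uninjured EpA cells at 5000 UMIs a cell; the solid line at 1 is counting alone and the dashed line at 2 the threshold, and blue points are the 81 variable genes. Most genes lie along the solid line; Ly6a, Gsto1 and Ltf at the upper left rest on 1 cell, and Fos, Jun, Nnat and Malat1 do not.

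Immediate early genes are switched on by cells within minutes of a stimulus. The list that holds them together with heat shock genes had the most variable members. Of the 24 genes of the early and heat shock list tested for variation, 18 were variable, where 1.3% of all genes tested were. Of these 18, Hspa8 and Ier2 were no longer variable without their top cell. Among the 1528 genes with a mean of at least 0.5 UMIs, 59 were variable. Fos was unseen in 366 of 539 cells (67.9%), and reached 31.1 UMIs at the 95th percentile and 73 in its highest cell. Jun had a median of 1 UMI and a 95th percentile of 13.1. The 22 early genes together gave a median of 9 UMIs of 5000 (3 at the 5th percentile, 87 at the 95th, 217 at most). The 70 cells with 10 or more of these genes, 12.99% of cells, held 54.98% of the early gene UMIs. Markers lay close in both: Ccdc153 averaged 9.27 UMIs in the 70 cells and 8.39 in the other 469, and Foxj1 2.16 and 2.09 in the same order. The median depth was 12008 UMIs in the 70 cells and 11451 UMIs in the other 469, and the mitochondrial share 9.85% in the 70 cells and 11.5% in the others, whose part in the result was not tested.

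Early genes were also prominent outside EpA. Of 25 early and heat shock genes past the floor, 3 were higher (background 24.6%) and 16 lower (background 24.4%) in EpA cells. The median log2 ratio was -1.53 over 30. Fos was within 2-fold, at 834 CPM in EpA and 1141 CPM in outside cells, and was seen in 24.7% of EpA and 41.3% of outside cells at 2000 UMIs. Jun stood at 622 CPM in EpA and 1501 CPM in outside cells. Junb stood at 189 CPM in EpA and 1301 CPM in outside cells, 6.89-fold lower (6.41 to 7.39). The higher members were chaperones, Hsp90aa1, Hspa1b and Hsph1, the last at 355 CPM in EpA and 41.4 CPM in outside cells.

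Across the 539 cells, early genes moved together. Spearman's rho was 0.79 for Fos and Egr1, 0.71 for Fos and Junb and 0.59 for Fos and Jun, as a description of cells of 1 library at equal depth. The chaperones Hsp90aa1 and Hsp90ab1 correlated at 0.55. The median size of rho over 406 pairs of 29 genes, chosen partly after their values were seen, was 0.068.

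The Fano factor grows with the mean, so the coefficient of variation is given beside it for the markers. Nnat had a Fano factor of 10.3, a coefficient of variation of 0.602 and a median of 25 UMIs at 5000, with 8.9 at the 5th and 60 at the 95th percentile and 164 in its highest cell. Rarres2 had a Fano factor of 5.22, a coefficient of variation of 0.774 and a median of 7 UMIs, with 1 at the 5th and 22.1 at the 95th percentile. The Fano factor was 2.29 for Tmem212, 2.28 for Mia, 1.95 for Ccdc153 and 1.19 for Foxj1. The coefficient of variation was 0.541 for Tmem212, 0.560 for Mia and 0.479 for Ccdc153, and 0.752 for Foxj1, which has the lowest level of the markers. Apoe, lower in the set as a whole, had a Fano factor of 7.55.

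The steadiest genes by coefficient of variation, among those of at least 500 CPM, included Dbi at 0.284 and Mt3 at 0.323, followed by Mt1 at 0.362, Ubb at 0.366 and Hsp90ab1 at 0.368. Dbi ran from 34.9 UMIs at the 5th to 94 at the 95th percentile. High genes have small coefficients from counting alone, and Dbi, Mt3 and Mt1 still had Fano factors of 5.06, 5.64 and 4.75.

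**Figure D5:**
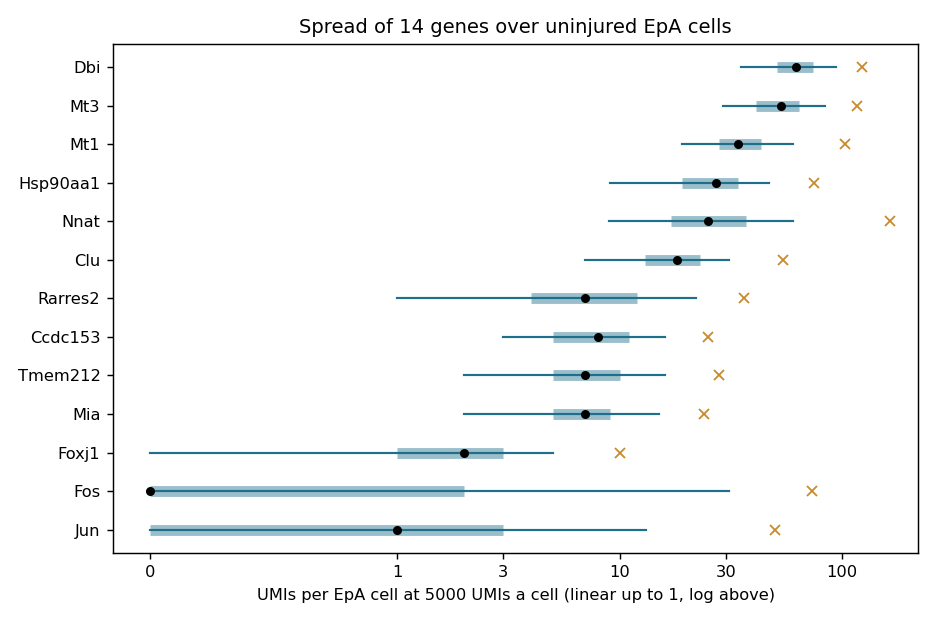
UMIs per EpA cell at 5000 UMIs a cell (axis linear up to 1, log above) for 13 genes in 539 uninjured cells; dots are medians, thick bars the 25th to 75th and thin lines the 5th to 95th percentiles, and crosses the highest cell. Dbi runs from 34.9 to 94 UMIs between the 5th and 95th percentiles, Rarres2 from 1 to 22.1, and Fos has a median of 0 with a 95th percentile of 31.1.

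The cilium genes were also summed in each cell. Transcripts of the 5 cilium lists made up a median of 2.68% of a cell's 5000 UMIs, with 2.04% at the 5th and 3.56% at the 95th percentile, and the rank correlation of this share with the cell's full depth was 0.07. At 2000 UMIs the median was 2.65% in EpA cells and 0.15% in outside cells. Of the 136 cilium genes tested for variation, 1 was variable (Tuba1a, 2.30), where 1.3% of all genes tested were. Their sum had a Fano factor of 4.23 and a coefficient of variation of 17.6%.

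In the EpA cells of the injured cord (1004 cells, 25296289 UMIs), the resting markers named here were lower as shares of all UMIs (CPM). Injured EpA cells held more UMIs each than uninjured ones, and levels as UMIs per cell were not compared. A lower CPM here therefore need not mean fewer UMIs of the gene in a cell. Foxj1 stood at 233 CPM in injured and 421 CPM in uninjured EpA cells. Ccdc153 stood at 295 CPM in injured and 1702 CPM in uninjured cells. Rarres2 stood at 370 CPM in injured and 1745 CPM in uninjured cells, and Mia at 466 CPM in injured and 1417 CPM in uninjured cells. Dbi, among the steadiest genes at rest by coefficient of variation alone, stood at 7558 CPM in injured and 12708 CPM in uninjured cells. The 28 Hox genes of the table summed to 1347 CPM in injured and 1338 CPM in uninjured cells. Fos stood at 877 CPM in injured and 834 CPM in uninjured cells. With 1 library per condition, injury and library cannot be told apart.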

How the data were processed

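Sorted cord cells were measured by droplet 3′ RNA sequencing, with 1 uninjured and 1 injured library. The submitters' processing notes name Cell Ranger 3.0.1, Seurat and mm10. The deposited values are raw UMI counts, as their whole numbers and unequal totals show. The authors' tables name the kept and EpA cells. Genes in the uninjured table are each seen in at least 3 cells. From these counts, sums per set were scaled to CPM, with 0.5 UMIs added for log2 ratios and a floor of 3 counts against a sum of 0. Cells were thinned at random to 2000 UMIs for shares and to 5000 for variation. No doublet caller was run. The lists, markers and cells were chosen with earlier results of these data known, and no test was made. Named genes were the 15 highest, the 12 largest and 8 smallest ratios, the 12 largest Fano factors, the 6 smallest coefficients of variation and up to 6 genes a list. Predicted, mitochondrially encoded and ribosomal protein genes were only counted, except within lists, where 1500015O10Rik is named; further genes, such as those of the 2 cells that stood apart, were named after their values were seen. The calculation was tested on simulated data. Calculations used Python 3.11.15, numpy 2.4.6, pandas 2.3.3 and scipy 1.17.1. R 4.3.3 with edgeR 4.0.16 and DESeq2 1.42.0 gave scaling factors for alternatives. Depth allows about 0.39 CPM as the limit of a count of 0 in EpA cells. A few genes that met the naming rule are not reported here.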

Additional observations from a re-analysis of the deposited data

Results flagged for a closer look

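The 165 uninjured barcodes outside the authors' kept cells entered only the comparisons above against all other uninjured barcodes. Of these 165, 48 held at least 3 ependymal markers with 2 UMIs each. Their median depth was 5294 UMIs and a median of 21.6% of their UMIs were mitochondrially encoded. The other 117 had a median of 1640 UMIs and 0.154%. In kept EpA cells the mitochondrial share was at most 19.9%.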

How the results depend on the processing

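The counts of genes higher and lower in EpA cells moved by over 1.5 times under few of the settings tried. Higher genes numbered 1872 as UMIs per cell, 1757 with a floor of 20 CPM, 2800 with no floor and 645 with a fold of 4, in place of 1070. Lower genes numbered 2130 with a floor of 20 CPM, 5040 with no floor and 691 with a fold of 4, in place of 1061. With no floor, higher genes made up 35.7% of calls. TMM factors shifted the median log2 ratio by 0.18, DESeq2 size factors by 0.16 and UMIs per cell by 0.75. Variable genes numbered 37 with cells thinned to 2000 UMIs, 143 with cells thinned to 8000 UMIs and 166 at a Fano factor of 1.5, in place of 81. Against all other uninjured barcodes, 815 genes were higher and 715 lower. Under the settings run, no named gene with a call changed direction. Leaving out outside cells with ependymal markers, shallow outside cells or EpA cells short of markers was chosen after seeing the data. No paired analysis was possible because each condition has 1 library, and no replicate could be left out. Depth limits genes under about 5 CPM, and the outside sums rest on 156 cells of several kinds.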
